A study of Mus musculus with 28 samples.

Results

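The enzymes that write and erase DNA methylation and the core of Polycomb repressive complex 2 were followed as a group of 10 genes through activated mouse T cells given an inhibitor of histone deacetylases. The genes were Ezh2, Ezh1, Eed and Suz12 of Polycomb repressive complex 2, the maintenance methylation genes Dnmt1 and Uhrf1, the de novo methyltransferase genes Dnmt3a and Dnmt3b, and the methylcytosine dioxygenase genes Tet2 and Tet3. They were chosen by name. Each was represented by its brightest probe set, the one with the highest mean over all arrays, and the whole array held 18194 genes. All 10 passed the detection level of 4.27 log2 units in all 28 arrays and were among the 9871 genes tested.

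CD8 and CD4 T cells had been taken from mouse spleen with negative selection kits, which leave the wanted cells untouched and remove the others. All cells, the controls included, were activated for 2 days with plate-bound anti-CD3 at 3 µg/ml and soluble anti-CD28 at 5 µg/ml. Drug groups then had 1 day with romidepsin at 2, 10 or 30 nM or vorinostat at 0.5, 2 or 10 µM. Control groups of either cell type carried no drug by the labels, which name no vehicle, and the animals' strain, age and number are not given there. Each of the 14 groups had 2 Mouse430_2 arrays, called replicate 1 and replicate 2, and the labels do not say from how many animals or cultures they came. Genes of the sex chromosomes, given further on, show that the replicate sets were cells of opposite sex and so of different animals, while groups within a set may share animals. The p-values measure the spread between these arrays.

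Polycomb repressive complex 2 places methyl groups on lysine 27 of histone H3, a mark of repressed genes. Ezh2 is its main catalytic subunit in dividing cells and Ezh1 its counterpart in resting cells, while Eed reads the mark and Suz12 holds the complex together. Methylation of cytosine in DNA is copied to the new strand after replication by Dnmt1, which Uhrf1 guides to sites methylated on the old strand alone, whereas Dnmt3a and Dnmt3b can methylate fresh sites. Tet2 and Tet3 oxidise methylcytosine, a step toward its removal. In T cells Ezh2 and Dnmt3a are both known to restrain genes of other helper or effector fates.

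The T cell genes Cd3e, Cd3d, Cd3g, Cd2 and Thy1 were over the detection level in all 28 arrays. Cd8a lay at 9.34 or more in CD8 arrays and at most at 6.07 in CD4 arrays. It was over the detection level in 12 of the 14 CD4 arrays. Cd8b1 was over that level in all 14 CD4 arrays, at 5.32 to 8.28, and lay at 9.93 or more in CD8 arrays. Cd4 was at most at 2.34 in CD8 arrays and spanned 2.39 to 8.55 in CD4 arrays. The 3 CD4 arrays with Cd4 under the detection level included both at 30 nM romidepsin. Zbtb7b, the other CD4 marker, was over that level in all 14 CD4 arrays and in 10 CD8 arrays. The replicate sets stood apart. Xist was near background in all replicate 1 arrays and high in all replicate 2 arrays, with Eif2s3y the other way round, and the floor of the values differed too, at 2.27 for replicate 1 arrays and 2.25 for replicate 2 arrays. Each set held 1 array of each group, so results are given within each set as well as from the fit of group means, and from a second fit that takes the replicate set of a cell type as a block. The gap between the 3′ and 5′ actin control probes, a sign of RNA degradation, ran from 0.748 to 1.62 log2 units and 8446 to 9321 genes were over the detection level per array. With 2 arrays a group, the 95% intervals were wide: their median reach on either side was 0.975 log2 units without the block and 0.353 with it.

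Dnmt3a was the 1 gene of the 10 that fell in the fit without the block, at the top doses, and the others differed from control by less than 1 log2 unit at every dose. Over the 10 genes and 12 drug doses there were 120 comparisons. In the fit without the block 3 were called lower and 0 higher at an adjusted p of 0.05 (limma with Benjamini-Hochberg adjustment over all genes tested), and all 3 were Dnmt3a. Among all genes tested 2.49% of such comparisons were called lower and 4.6% higher, so the number of falls was close to that of the array as a whole. With the block 25 were called lower and 6 higher, against 15.1% and 16% over all genes. The 6 doses in a cell type share that cell type's 2 control arrays, so their changes are not independent of each other. By cell type and drug, the calls without the block were 0 of 30 in CD8 cells with romidepsin (0 with an unadjusted p under 0.05), 1 with vorinostat, and 1 in CD4 cells with either drug, where 3.98%, 7.95%, 9.97% and 6.47% of all genes were called. With the block they were 6, 8, 8 and 9 in the order CD8 romidepsin, CD8 vorinostat, CD4 romidepsin, CD4 vorinostat, against 23.2%, 34%, 37.6% and 29.9% of all genes.

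**Figure D1:**
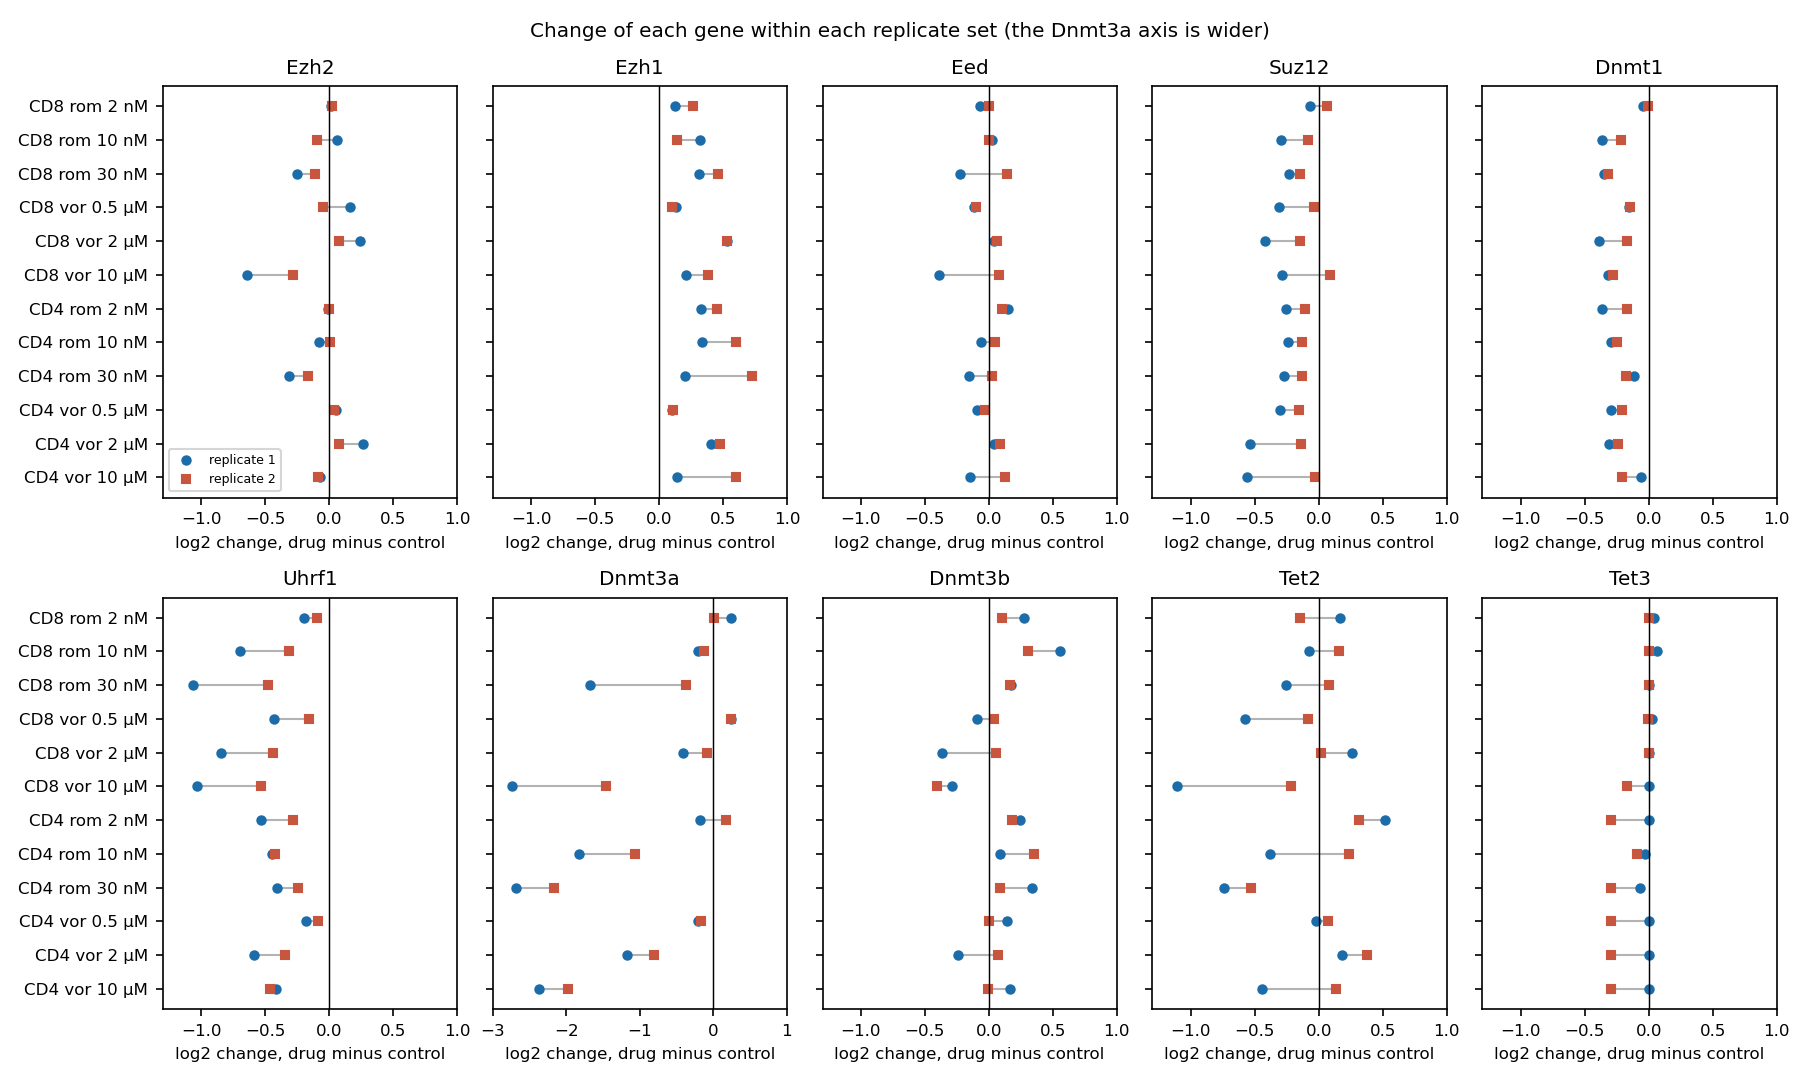
Log2 change from control (x axis) at each dose of romidepsin (rom) and vorinostat (vor) in CD8 and CD4 cells (rows), 1 panel per gene, with the change within replicate 1 as circles and within replicate 2 as squares; the Dnmt3a axis is wider than the others. Dnmt3a reached -2.74, Uhrf1 and Dnmt1 lay left of 0 in all 24 values, and Ezh1 lay right of 0 in all 24.

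Dnmt3a, which encodes a de novo DNA methyltransferase, was read at 8.57 and 8.98 log2 units in the CD4 controls (replicates 1 and 2). With romidepsin the CD4 arrays read 8.39 and 9.15 at 2 nM, 6.75 and 7.92 at 10 nM, and 5.88 and 6.81 at 30 nM. With vorinostat they read 8.35 and 8.82 at 0.5 µM, 7.40 and 8.17 at 2 µM, and 6.19 and 7.01 at 10 µM. Both arrays of the middle and top dose of either drug thus lay under both controls, and those of the low dose overlapped them. Counting both cell types, Dnmt3a lay under its controls without overlap in 7 of 12 comparisons, as did 13.6% of all gene-by-dose comparisons. At 30 nM romidepsin the change was -2.43 ± 0.48 (standard error; limma adjusted p = 0.00181), a level 5.38-fold lower than in the CD4 controls, and -2.69 and -2.17 within replicates 1 and 2. At 10 µM vorinostat it was -2.18 ± 0.48 (adjusted p = 0.00473), 4.52-fold lower, and -2.38 and -1.98 within the replicates. These calls stood beside 7.91% of all genes called lower at 30 nM romidepsin and 7.1% at 10 µM vorinostat, and Dnmt3a was the only gene of the 10 called in each. The middle doses did not pass without the block. The change was -1.44 ± 0.48 at 10 nM (limma adjusted p = 0.0809, and 0.0017 with the block) and -0.99 ± 0.48 at 2 µM (limma adjusted p = 0.563, and 0.0295 with the block). The call at 10 nM was gained with quantile normalization (adjusted p = 0.0103), with equal array medians (0.0178) and without replicate 2 of that dose (-2.03, adjusted p = 0.036). The call at 10 µM was lost without replicate 1 of that dose (-1.77, adjusted p = 0.0712) and with the mean of all probe sets (-2.28, adjusted p = 0.0505).

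In CD8 cells Dnmt3a read 9.50 and 9.21 in the controls. With romidepsin it read 9.74 and 9.22 at 2 nM, 9.30 and 9.09 at 10 nM, and 7.83 and 8.84 at 30 nM. With vorinostat it read 9.75 and 9.46 at 0.5 µM, 9.09 and 9.13 at 2 µM, and 6.76 and 7.76 at 10 µM. Only the top doses were more than 0.25 log2 units from the control mean. At 10 µM vorinostat the change was -2.10 ± 0.48 (limma adjusted p = 0.00562), 4.27-fold lower, with -2.74 and -1.45 in the replicates, where 8.5% of all genes were called lower. This call was lost without replicate 1 of that dose (-1.60, limma adjusted p = 0.0889) or of the CD8 control (-1.95, limma adjusted p = 0.0522). At 30 nM romidepsin it was -1.02 ± 0.48 and did not pass (limma adjusted p = 0.227, and 0.0134 with the block), and the replicates were apart at -1.67 and -0.37. The step from 2 to 10 µM vorinostat in CD8 cells was -1.85 ± 0.48 (limma adjusted p = 0.0373), the only step between neighbouring doses called in any of the 10 genes, where 1.81% of all genes were called lower, and 0.576% over the steps pooled. It was lost without replicate 1 of 10 µM (-1.35, limma adjusted p = 0.372) or either replicate of 2 µM (adjusted p = 0.17 and 0.178), and also with each cell type fitted alone, with no filter on low values and with the mean of all probe sets (adjusted p = 0.0608, 0.0569 and 0.19). With the block 5 steps were called, all of them falls. They were this one, 2 more of Dnmt3a in CD4 cells (-1.44 from 2 to 10 nM romidepsin and -1.19 from 2 to 10 µM vorinostat), and those of Ezh2 and Tet2 from 2 to 10 µM vorinostat in CD8 cells (-0.62 and -0.80), against 9.52% of all gene-by-step comparisons called lower.

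**Figure D2:**
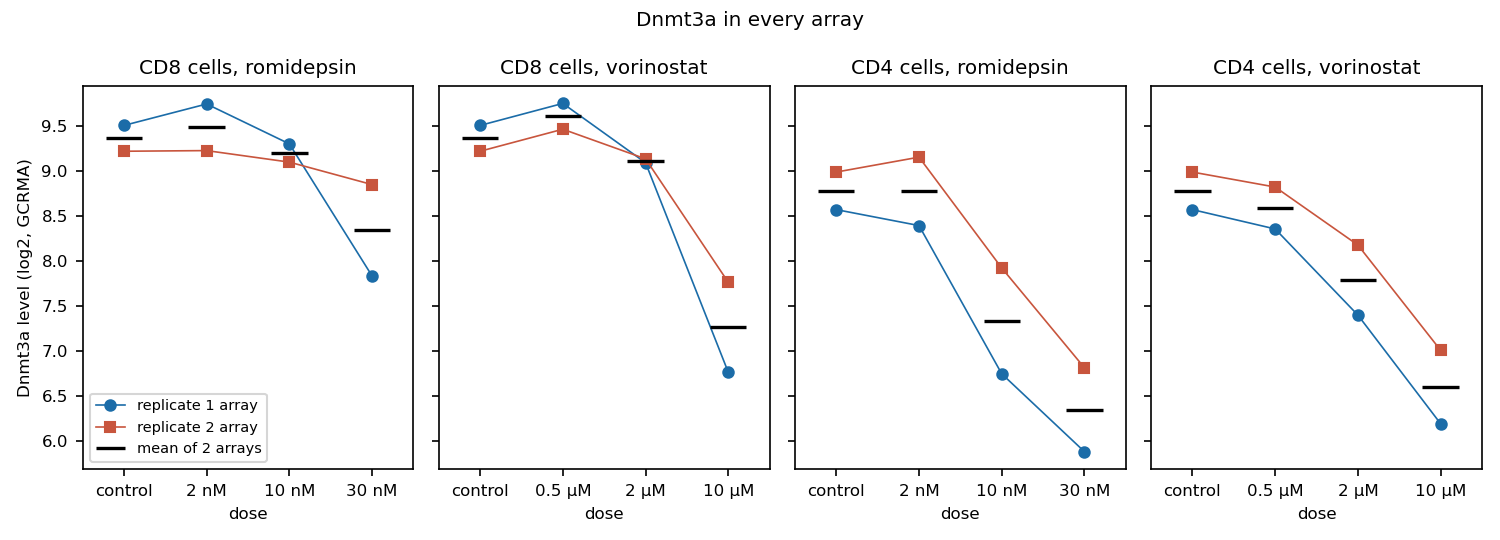
Dnmt3a level (y axis, log2 GCRMA value) in each array against dose (x axis) for CD8 cells on the left and CD4 cells on the right, with replicate 1 as circles, replicate 2 as squares and the mean of both as a bar. The level at 30 nM romidepsin was 5.88 and 6.81 in CD4 cells, and 7.83 and 8.84 in CD8 cells.

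Ordered by mean, Dnmt3a in CD4 cells was lowest at 30 nM romidepsin (6.35), then at 10 µM vorinostat (6.60), 10 nM romidepsin (7.33), 2 µM vorinostat (7.79), 0.5 µM vorinostat (8.58), 2 nM romidepsin (8.77) and in the control (8.78). Neighbours in this order overlapped array by array except between 2 and 0.5 µM vorinostat. In CD8 cells the order was 10 µM vorinostat (7.26), 30 nM romidepsin (8.34), 2 µM vorinostat (9.11), 10 nM romidepsin (9.20), control (9.36), 2 nM romidepsin (9.48) and 0.5 µM vorinostat (9.60). There the lowest pair and the next did not overlap with each other or with the rest, and the other 5 groups overlapped with their neighbours.

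The array carried 5 probe sets for Dnmt3a, and each of them was lower at the top dose of either drug in both cell types. Their changes ran from -1.64 to -1.02 in CD8 cells at 30 nM romidepsin and from -2.83 to -1.60 at 10 µM vorinostat. In CD4 cells they ran from -3.25 to -1.0 at 30 nM and from -2.75 to -1.20 at 10 µM. Probe sets of 1 gene read the same RNA in the same arrays and are no replicates of each other, and those with a level near 5 approach the background, where a fall is cut short.

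**Figure D3:**
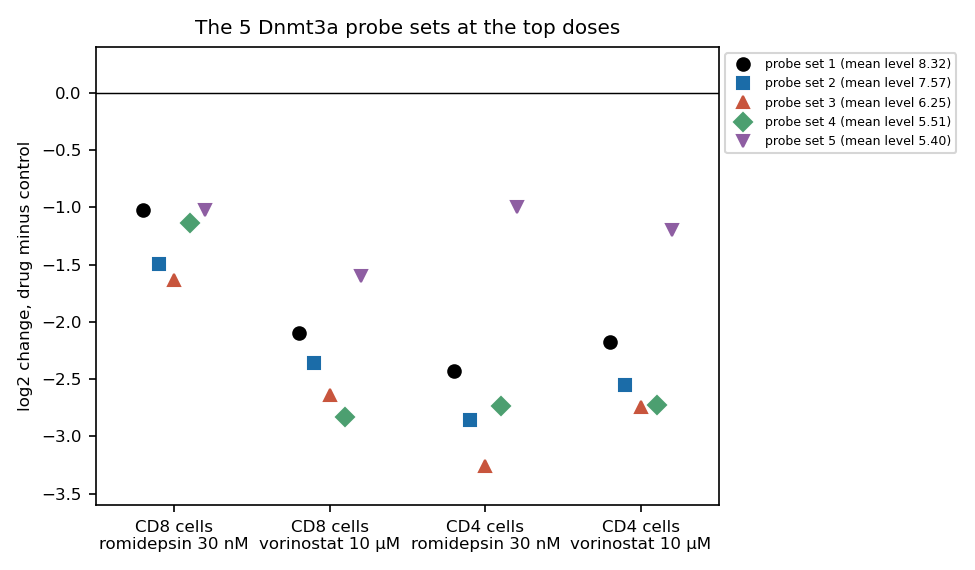
Log2 change from control (y axis) of each of the 5 Dnmt3a probe sets at the top doses (x axis), numbered by their mean level over all arrays in log2 units. All 20 points lie under 0, between -3.25 and -1.0.

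The change of Dnmt3a was set against the cell type directly. At 30 nM romidepsin the change in CD8 cells minus that in CD4 cells was 1.41 ± 0.68, by 1.02 and 1.80 within the replicates, and it did not pass without the block (limma adjusted p = 0.656, and 0.0406 with the block). At 10 nM it was 1.28 ± 0.68 (limma adjusted p = 1, and 0.0843 with the block). At 10 µM vorinostat, where both cell types had fallen, it was 0.08 ± 0.68. Over the 10 genes and 6 doses 0 of 60 such differences were called and 0 had an unadjusted p under 0.05, and the block called 1 (4 unadjusted), Dnmt3a at 30 nM. Among all genes tested 0.277% were called without the block and 6.35% with it.

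Other measures moved with the same arrays. The gap of the actin control probes was 1.55 and 0.97 in CD4 cells at 30 nM romidepsin and 1.62 and 1.09 at 10 µM vorinostat, against 0.94 and 0.78 in the CD4 controls. In CD8 cells it was 1.23 and 0.90 at 30 nM and 1.43 and 1.16 at 10 µM, against 0.86 and 0.79 in the CD8 controls. The same gap of the Gapdh control probes did not rise in all of these arrays. In CD4 cells the Gapdh gap was 0.238 and 0.090 at 30 nM and 0.339 and 0.081 at 10 µM. The CD4 controls read 0.202 and 0.161. In CD8 cells the Gapdh gap was 0.180 and 0.073 at 30 nM and 0.256 and 0.133 at 10 µM. The CD8 controls read 0.195 and 0.077. Of 5 B cell markers (Cd79a, Cd79b, Ms4a1, Pax5 and Ebf1), Pax5 was at background in all arrays and Cd79a passed the detection level in 1. Their summed level, on the linear scale, was 44.8 and 80.8 at 30 nM and 38.6 and 114 at 10 µM in CD4 cells, against 131 and 1252 in the CD4 controls, and 43.9 and 147 at 30 nM and 43.2 and 94.0 at 10 µM in CD8 cells, against 129 and 541 in the CD8 controls. On the same scale Cd4 and Zbtb7b summed to 29.8 and 42.7 at 30 nM and 30.1 and 52.2 at 10 µM in CD4 cells. In the CD4 controls they summed to 410 and 376. Cd8a and Cd8b1 summed to 2580 and 5437 at 30 nM and 1626 and 3512 at 10 µM in CD8 cells. In the CD8 controls they summed to 6085 and 7716. The T cell markers Cd3e, Cd3d, Cd3g, Cd2 and Thy1 were lower too. Their summed linear level was 5679 and 13381 at 30 nM and 7099.8 and 12034 at 10 µM in CD4 cells, against 21091 and 30494 in the CD4 controls, and 9537 and 22965 at 30 nM and 6355 and 13896 at 10 µM in CD8 cells, against 22042 and 33965 in the CD8 controls. The part of RNA quality and of other cells in these results was not tested, and in such bulk RNA fewer cells of a type and less RNA per cell cannot be told apart. Markers of myeloid, dendritic, NK and red cells were under the detection level in all arrays.

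By the likeness of its 14 group means, each taken from its cell type's mean, Dnmt3a was most like Fxyd5 (Pearson r = 0.991), Bcat2 (0.990) and Trat1 (0.990). Trat1 encodes a membrane partner of the T cell receptor and Bcat2 a mitochondrial aminotransferase of branched-chain amino acids. These correlations are over 14 groups that share arrays and doses, and are given as a description.

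Uhrf1 and Dnmt1, the pair that copies methylation at the replication fork, were both lower than control at every dose and in both replicate sets. Their replicate sets lay about 1 log2 unit apart, with replicate 1 lower, and this spread widened the fit without the block. Uhrf1 in CD8 cells read 11.53 and 12.13 in the controls, and 11.33 and 12.04, 10.83 and 11.82, and 10.46 and 11.66 with romidepsin at 2, 10 and 30 nM. With vorinostat it read 11.10 and 11.98, 10.68 and 11.69, and 10.50 and 11.60 at 0.5, 2 and 10 µM. Within either replicate set every step of these series went down. The change was -0.77 ± 0.69 at 30 nM (limma adjusted p = 0.636, and 0.00019 with the block) and -0.78 ± 0.69 at 10 µM (limma adjusted p = 0.514, and 8.67e-05 with the block), a level 1.70-fold and 1.72-fold lower. In CD4 cells Uhrf1 read 10.93 and 11.93 in the controls, and 10.40 and 11.65, 10.49 and 11.51, and 10.52 and 11.69 with romidepsin. With vorinostat it read 10.75 and 11.84, 10.34 and 11.59, and 10.52 and 11.47. Here romidepsin gave lower values at 10 nM than at 30 nM in both replicates. The changes ran from -0.46 to -0.14, and the changes of -0.32 at 30 nM and -0.44 at 10 µM were called with the block alone (adjusted p = 0.0375 and 0.00824).

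Over the 12 doses 0 of the Uhrf1 comparisons were called without the block and 8 with it, at the middle and top dose of both drugs in both cell types, all lower. The second Uhrf1 probe set was lower at all 4 top doses, with -1.03 at 30 nM and -1.12 at 10 µM in CD8 cells and -0.70 at both in CD4 cells. Every one of the 24 changes within a replicate set was under 0 for Uhrf1, and the same held for 5.39% of all genes tested. Quantile normalization and equal array medians left all 12 mean changes of Uhrf1 and of Dnmt1 under 0.

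Dnmt1 moved less. It read 10.73 and 11.51 in the CD8 controls, with 10.68 and 11.50, 10.36 and 11.29, and 10.38 and 11.20 across the romidepsin doses and 10.58 and 11.36, 10.34 and 11.34, and 10.41 and 11.23 across the vorinostat doses. In the CD4 controls it read 10.62 and 11.61, with 10.25 and 11.44, 10.32 and 11.36, and 10.50 and 11.44 across romidepsin and 10.32 and 11.40, 10.31 and 11.37, and 10.56 and 11.40 across vorinostat. In CD4 cells the mean at the top dose was nearer to the control than at the doses under it, but this rested on replicate 1, and in replicate 2 the low and top doses read nearly the same. The changes ran from -0.33 to -0.03 with a standard error of 0.64 without the block (lowest limma adjusted p = 0.845), and 6 of 12 were called lower with the block. Those were the middle and top doses of both drugs in CD8 cells and the middle doses in CD4 cells, at -0.33 to -0.27. The 8 changes of its other 2 probe sets at the top doses had the same sign.

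**Figure D4:**
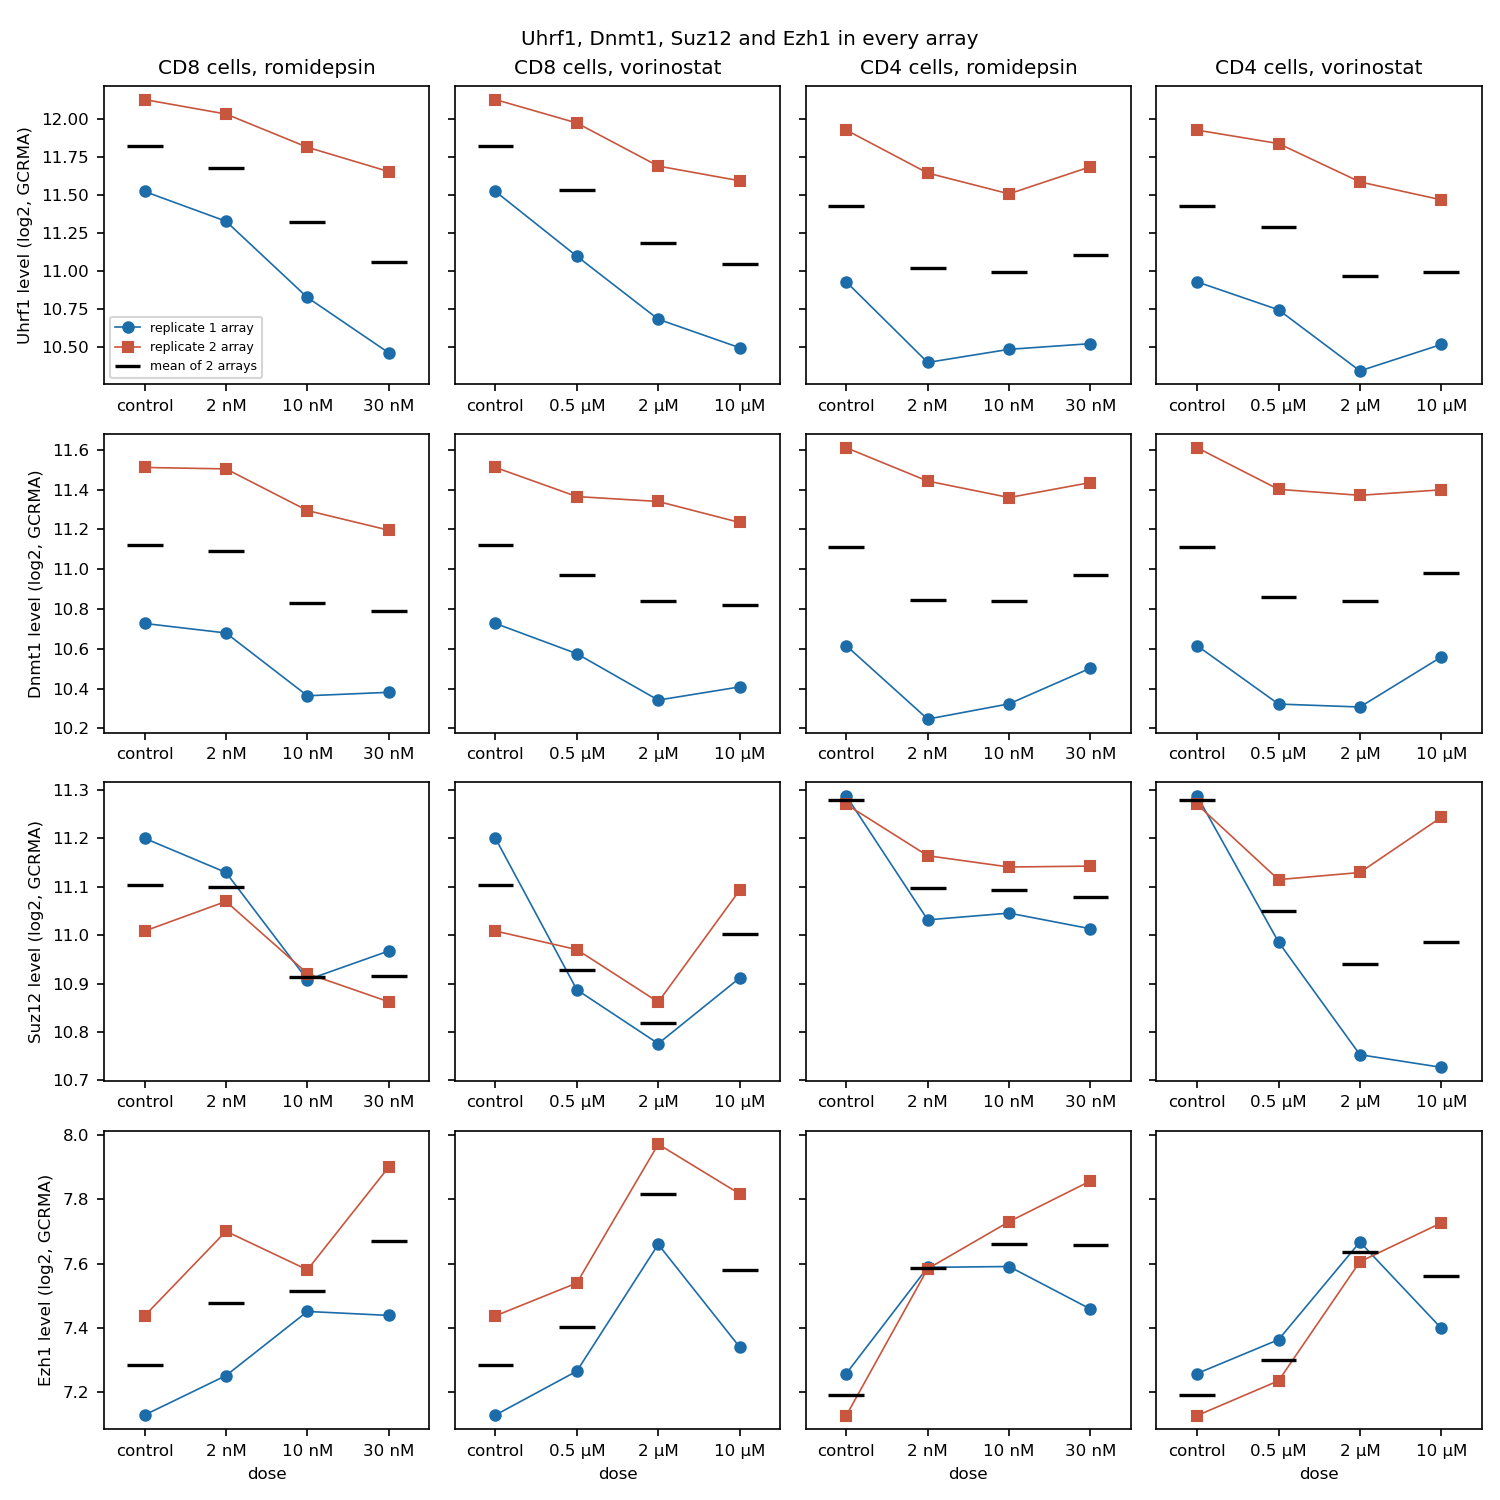
Levels (y axis, log2 GCRMA value) of Uhrf1, Dnmt1, Suz12 and Ezh1 (rows) in each array against dose (x axis), with CD8 cells on the left and CD4 cells on the right, replicate 1 as circles, replicate 2 as squares and their mean as a bar; each row has its own y range. Uhrf1 in CD8 cells steps down to 10.50 and 11.60 at 10 µM vorinostat, while Ezh1 there peaks at 2 µM with 7.66 and 7.97.

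E2F factors drive genes of DNA replication. Windows of 250 bases before the annotated start (RefSeq, build GRCm38.p6) were searched for their motif. It was in 1 of the 3 Dnmt1 windows, both Uhrf1 windows and that of Suz12. For each of these genes 1 window with the motif is printed, beside a Dnmt3a window that holds none. The printed Dnmt1 window lies downstream of the other Dnmt1 starts listed, and so inside the gene as read from them. The windows of those starts held no E2F motif. The E2F motif was searched on both strands as TTCCCGC, with the variants TTGGCGC or else TTCGCGC or else TTGCCGC. In the first 3 sequences its matches are in capitals and in the last the capitals mark the Sp1 box GGGCGG, and no match overlapped one of another motif searched. The Dnmt1 window lies at chr9:20952624-20952873 on the minus strand, the Uhrf1 window at chr17:56304063-56304312 and the Suz12 window at chr11:79992856-79993105 on the plus strand, and the Dnmt3a window at chr12:3806730-3806979 on the plus strand.
Dnmt1 promoter: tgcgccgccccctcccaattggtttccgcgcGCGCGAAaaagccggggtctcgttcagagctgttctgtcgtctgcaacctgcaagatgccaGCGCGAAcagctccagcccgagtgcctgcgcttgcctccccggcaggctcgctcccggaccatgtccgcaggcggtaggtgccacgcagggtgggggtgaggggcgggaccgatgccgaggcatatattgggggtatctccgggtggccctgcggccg
Uhrf1 promoter: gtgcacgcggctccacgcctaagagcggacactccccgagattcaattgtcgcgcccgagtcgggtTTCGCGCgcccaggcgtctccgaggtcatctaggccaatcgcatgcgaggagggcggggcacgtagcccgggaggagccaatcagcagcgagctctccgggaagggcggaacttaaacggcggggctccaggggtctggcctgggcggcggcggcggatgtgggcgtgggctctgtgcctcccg
Suz12 promoter: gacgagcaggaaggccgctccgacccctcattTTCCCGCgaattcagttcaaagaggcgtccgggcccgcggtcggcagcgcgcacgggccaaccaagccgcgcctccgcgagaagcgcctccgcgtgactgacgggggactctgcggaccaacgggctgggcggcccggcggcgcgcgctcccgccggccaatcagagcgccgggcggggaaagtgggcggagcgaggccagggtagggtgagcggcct
Dnmt3a promoter: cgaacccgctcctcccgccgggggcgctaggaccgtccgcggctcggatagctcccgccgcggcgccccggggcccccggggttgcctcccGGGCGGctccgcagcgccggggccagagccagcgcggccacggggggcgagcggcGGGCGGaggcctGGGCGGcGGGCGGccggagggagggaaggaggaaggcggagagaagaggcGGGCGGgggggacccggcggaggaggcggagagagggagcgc
Of the 15 starts that the table lists for the 10 genes, 4 had an E2F motif (1 of the 3 of Dnmt1, both of Uhrf1 and that of Suz12), as did 7.89% of all 32851 promoters of the same length. The CHR motif TTTGAA was in 4 of the 15, against 16.0% of all promoters, the NF-Y box CCAAT in 7, against 33.8%, and the Sp1 box GGGCGG in 10, against 32.7%. The Dnmt3a window held 5 Sp1 boxes and 82.4% G and C. Some genes gave several of the 15 windows, and the first and second Dnmt3a windows overlap, so these counts are not of independent windows. Such matches describe the letters of these windows.

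By group means Uhrf1 was most like genes of the dividing cell, namely the helicase subunit gene Mcm7 (r = 0.976), the cyclin gene Ccnf (0.973) and Cdca5 (0.971), which acts in sister chromatid cohesion. Uhrf1 and Dnmt1 correlated with each other at 0.857 and Uhrf1 with Ezh1 at -0.819 over the 14 group means. Of 24 replication genes tested, 0 rose and 3 fell in CD8 cells at 30 nM romidepsin and 0 rose and 5 fell at 10 µM vorinostat, against 2.93% and 8.5% of all genes called lower. In CD4 cells 2 fell at 30 nM and 1 at 10 µM, and none rose, against 7.91% and 7.1% of all genes called lower, so these counts were near the share of all genes. With the block 18 and 20 fell in CD8 cells at these doses, against 24.6% and 32.4% of all genes, and 13 and 14 fell and 3 and 2 rose in CD4 cells, against 28.3% and 29.3% called lower and 35.3% and 31.9% higher. Their median change was -0.78 and -0.91 in CD8 cells and -0.41 and -0.41 in CD4 cells, beside 0.02, 0, 0.07 and 0.02 over all genes tested. Rrm2, a subunit of ribonucleotide reductase, fell in all 4, with changes of -1.53 and -2.19 in CD8 cells and -1.70 and -1.88 in CD4 cells. Rfc3, part of the clamp loader, fell in CD8 cells at 10 µM (-0.63) and in CD4 cells at 30 nM (-0.61). In CD8 cells the helicase partner Cdc45 fell at 30 nM (-0.98) and 10 µM (-1.26), as did the helicase subunit gene Mcm5 (-1.03 and -1.09), and its partner subunit gene Mcm3 fell at 10 µM (-1.73).

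Among the Polycomb core genes none was called against control without the block. Ezh1, the methyltransferase of resting cells, was higher than control in all 24 changes within a replicate set, as were 4.46% of all genes tested. It read 7.13 and 7.44 in the CD8 controls, with 7.25 and 7.70, 7.45 and 7.58, and 7.44 and 7.90 across romidepsin and 7.27 and 7.54, 7.66 and 7.97, and 7.34 and 7.82 across vorinostat. In the CD4 controls it read 7.26 and 7.13, with 7.59 and 7.58, 7.59 and 7.73, and 7.46 and 7.86 across romidepsin and 7.36 and 7.24, 7.67 and 7.61, and 7.40 and 7.73 across vorinostat. In 8 of the 12 comparisons both drug arrays lay over both controls, which was so for at least 8 comparisons in 8.1% of all genes tested. The changes ran from 0.11 to 0.53 ± 0.23, with the peak at 2 µM vorinostat in CD8 cells (limma adjusted p = 0.331, and 0.00559 with the block), and the block called 6 of 12, all higher. A second detected Ezh1 probe set gave smaller values. It changed by -0.04 and -0.05 in CD8 cells and by 0.13 and 0.15 in CD4 cells at the top doses of romidepsin and vorinostat, and the other 2 were under the detection level in all arrays. With the mean of all 4 probe sets the change at 0.5 µM vorinostat in CD8 cells turned to -0.03, against 0.12 with the brightest.

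Ezh2, the catalytic subunit of dividing cells, lay between 10.41 and 11.54 in all arrays. Its 24 changes within a replicate set split evenly, 12 over and 12 under 0. The clearest difference was at 10 µM vorinostat in CD8 cells, with 10.41 and 11.11 against 11.05 and 11.39 in the controls, and these arrays overlapped. The change was -0.46 ± 0.36 (limma adjusted p = 0.451, and 0.00403 with the block), and -0.64 and -0.28 within the replicates. In CD4 cells at the same dose it was -0.08 ± 0.36, and the difference between the cell types was not called (limma adjusted p = 1, and 0.171 with the block). At 2 µM vorinostat Ezh2 was 0.16 over the control in CD8 cells and 0.17 over it in CD4 cells, neither of them called in either fit. Its step from 2 to 10 µM in CD8 cells passed without the block only with equal array medians (-0.61, limma adjusted p = 0.0395).

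Suz12 was lower than control by a little in nearly every comparison. Its arrays read 11.29 and 11.27 in the CD4 controls, with 11.03 and 11.16, 11.05 and 11.14, and 11.01 and 11.14 across romidepsin and 10.99 and 11.11, 10.75 and 11.13, and 10.73 and 11.24 across vorinostat. In the CD8 controls they read 11.20 and 11.01, with 11.13 and 11.07, 10.91 and 10.92, and 10.97 and 10.86 across romidepsin and 10.89 and 10.97, 10.78 and 10.86, and 10.91 and 11.09 across vorinostat. In 10 of 12 comparisons both drug arrays lay under both controls, which was so for at least 10 comparisons in 2.1% of all genes tested. All 6 in CD4 cells were among them, and all 6 share the same 2 control arrays. The changes were small, from -0.34 to -0.00 with a standard error of 0.18, and 2 were called with the block, at 2 µM (-0.34, adjusted p = 0.0496) and 10 µM vorinostat (-0.29, adjusted p = 0.0475) in CD4 cells. The 20 changes of its other 5 probe sets at the top doses were all under 0 too. Eed, the reader of the mark, stayed between 11.11 and 11.91 in all arrays. Its changes ran from -0.16 to 0.13 with a standard error of 0.23, and none was called in either fit. The 95% interval of the change at 30 nM romidepsin was -0.53 to 0.44 in CD8 cells and -0.55 to 0.42 in CD4 cells, so moderate changes in either direction were not detectable.

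Dnmt3b, the other de novo enzyme, was not called at any dose. It read 7.77 and 8.29 in CD8 cells at 10 µM vorinostat, against 8.06 and 8.69 in the CD8 controls, a change of -0.35 ± 0.46 (limma adjusted p = 0.703, and 0.0629 with the block). In CD4 cells at 10 µM it read 7.61 and 8.10, against 7.45 and 8.11 in the CD4 controls, a change of 0.08 ± 0.46. Its changes were over 0 in both replicates at all romidepsin doses, from 0.09 to 0.56, with means of 0.17 to 0.43, and none of its 12 comparisons was called in either fit. The interval of the change at 30 nM romidepsin in CD4 cells was -0.77 to 1.19, and that of Dnmt3a was -3.46 to -1.40, so these intervals did not overlap. In CD8 cells they did, at -0.81 to 1.15 for Dnmt3b and -2.05 to 0.01 for Dnmt3a at 30 nM, and at -1.33 to 0.64 for Dnmt3b and -3.12 to -1.07 for Dnmt3a at 10 µM vorinostat. The difference between the genes was not tested.

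Of the changes of Tet2 within a replicate set 12 were over 0 and 12 under 0. Both drug arrays lay over both controls in 3 comparisons and under both in 1. Tet2 was lower at some top doses, and changed by -0.15 in CD4 cells at 10 µM vorinostat and -0.09 in CD8 cells at 30 nM romidepsin. It read 7.36 and 7.60 in CD4 cells at 30 nM romidepsin, against 8.09 and 8.12 in the CD4 controls, a change of -0.63 ± 0.35 (limma adjusted p = 0.242, and 0.0325 with the block). In CD8 cells at 10 µM vorinostat it read 6.34 and 7.48, against 7.45 and 7.70 in the CD8 controls, a change of -0.66 ± 0.35 (limma adjusted p = 0.219, and 0.0259 with the block), by -1.11 and -0.21 within the replicates. Without replicate 2 of that dose the fit without the block called it too (-1.23, limma adjusted p = 0.0305). The second Tet2 probe set was lower in both, by -0.79 and -0.35. At the lowest romidepsin dose in CD4 cells Tet2 stood higher, at 8.61 and 8.44, a change of 0.42 ± 0.35 that was not called in either fit. Tet2 was the gene nearest to Eed by group means (r = 0.877), and the gene nearest to Tet2 was Dcps (0.916).

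Tet3, the third dioxygenase of the family, lay between 5.08 and 5.54 and read the same value in many arrays. It was 5.34 in 9 of the 14 replicate 1 arrays and 5.25 in 10 of the 14 replicate 2 arrays, with 11 distinct values in all, where each other gene had 28. Its changes ran from -0.18 to 0.03. Repeated values of this kind carry little information on change, and Tet3 is not counted as unchanged.

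Between the cell types without drug none of the 10 genes was called, and none had an unadjusted p under 0.05, where 6.22% of all genes were called. With the block 2 were called (3 unadjusted), against 37.5% of all genes. Dnmt3b read 8.06 and 8.69 in CD8 controls and 7.45 and 8.11 in CD4 controls, a difference of 0.60 ± 0.46 (limma adjusted p = 0.726, and 0.007 with the block). Uhrf1 read 11.53 and 12.13 in CD8 controls and 10.93 and 11.93 in CD4 controls, a difference of 0.40 ± 0.69 (limma adjusted p = 1, and 0.0233 with the block). The differences of Dnmt3a (0.58 ± 0.48) and Tet2 (-0.54 ± 0.35) passed in neither fit (block adjusted p = 0.163 and 0.0965).

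Around the 10 genes, 48 others of Polycomb complexes, of lysine 27 demethylation and of DNA methylation were listed, of which 40 were tested. At the low doses none was called in either fit. At the top doses 1 rose and 0 fell in CD8 cells with romidepsin and 2 rose and 4 fell with vorinostat, and 4 rose and 4 fell in CD4 cells with romidepsin and 3 rose and 4 fell with vorinostat. All genes tested were called in 10.8%, 20.5%, 21.2% and 18% of cases in those 4 comparisons, with 7.89%, 12%, 13.3% and 10.9% called higher. With the block 7 rose and 6 fell, 8 rose and 14 fell, 10 rose and 14 fell, and 9 rose and 10 fell, where 27.8%, 31.6%, 35.3% and 31.9% of all genes were called higher and 24.6%, 32.4%, 28.3% and 29.3% lower. The list's median change lay between -0.15 and -0.07, beside 0 to 0.07 over all genes tested.

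Tet1, a further dioxygenase gene, fell in CD4 cells. It read 2.67 and 3.90 at 30 nM romidepsin and 2.41 and 3.76 at 10 µM vorinostat, all under the detection level, against 6.45 and 5.88 in the CD4 controls. The level was at least 3.72-fold lower at both, counted from the detection level (limma adjusted p = 0.0458 and 0.0384). In CD8 cells the controls were apart, at 3.20 and 5.36, and no call was made. Bcor, a corepressor that joins a variant of Polycomb complex 1, fell in CD8 cells at 10 µM (-1.35) and in CD4 cells at 30 nM and 10 µM (-1.62 and -1.41). Cbx6, a reader of lysine 27 methylation, fell in the same 3 (-1.04, -1.01 and -0.99), and so did Asxl1, the partner of the H2A deubiquitinase Bap1 (-0.79, -0.84 and -0.68). Hells, a remodeller that DNA methylation depends on, fell in CD8 cells at 10 µM (-0.90).

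Other genes of the complexes were higher. Trdmt1, once named Dnmt2 and known as an RNA methyltransferase, rose in all 4 comparisons, by 1.43 and 1.42 in CD8 cells and by 1.45 and 1.49 in CD4 cells at 30 nM and 10 µM. Cbx2, another reader, rose by 0.57 in CD8 cells at 10 µM and by 0.67 and 0.83 in CD4 cells. Pcgf6, a Polycomb complex 1 subunit, rose by 0.70 and 0.77 in CD4 cells. In CD8 cells it read 8.06 and 7.98 at 30 nM and 8.27 and 8.28 at 10 µM. These values lay under both CD8 controls (8.33 and 8.37), with no call without the block. Ring1, the ubiquitin ligase of Polycomb complex 1, rose by 0.75 in CD4 cells at 30 nM.

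**Figure D5:**
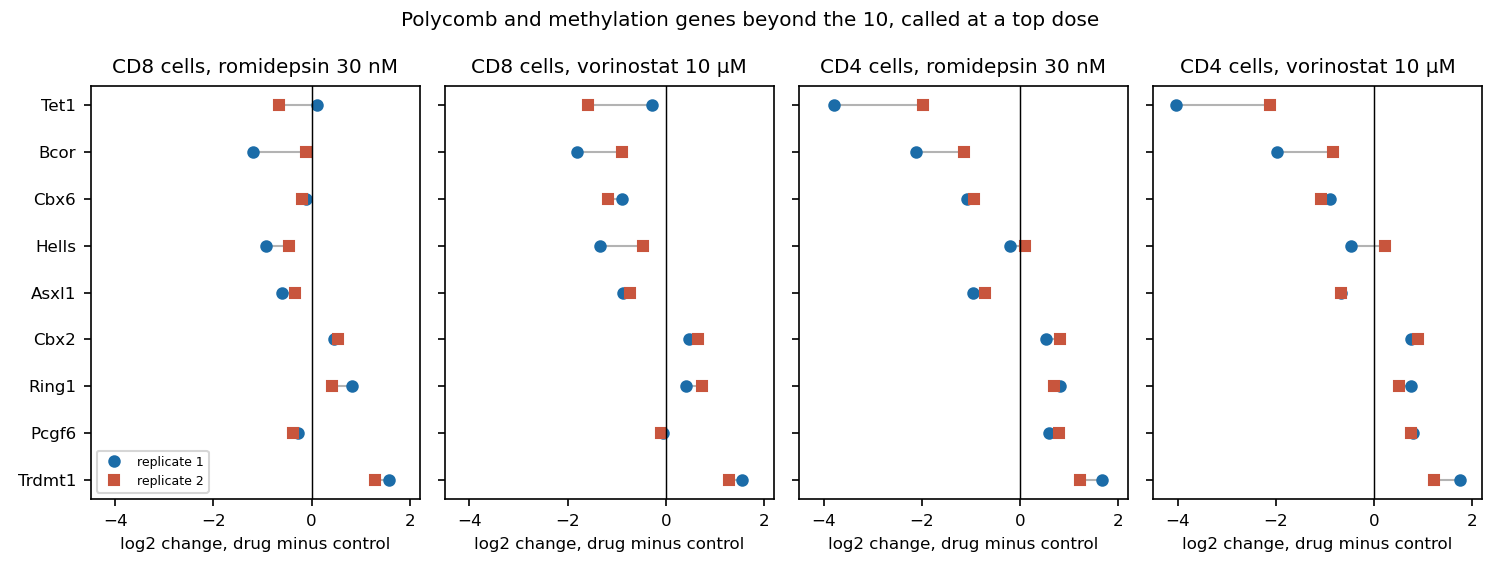
Log2 change from control (x axis) within replicate 1 (circles) and replicate 2 (squares) of the 9 listed Polycomb and DNA methylation genes called at a top dose, beyond the 10 followed, in 4 panels for cell type and drug. Trdmt1 lies right of 0 in all panels (1.42 to 1.49 on average) and Bcor left of 0; drug values of Tet1 in CD4 cells are under the detection level.

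Of 16 listed genes that Polycomb represses in other settings, 10 were tested. In CD8 cells 4 rose and 0 fell at either top dose, and in CD4 cells 3 rose and 1 fell at 30 nM and 2 rose and 1 fell at 10 µM. Of all genes 7.89% and 12% were called higher in CD8 cells at 30 nM and 10 µM, and 13.3% and 10.9% in CD4 cells. Called lower were 2.93%, 8.5%, 7.91% and 7.1% in that order. With the block 5 listed genes rose and 3 fell in CD8 cells at 30 nM and 5 rose and 4 fell at 10 µM. In CD4 cells 5 rose and 2 fell at 30 nM and 3 rose and 3 fell at 10 µM. The block called 27.8%, 31.6%, 35.3% and 31.9% of all genes higher and 24.6%, 32.4%, 28.3% and 29.3% lower. Nothing is read from these counts, since a gene at background could not fall. Cdkn2a and Cdkn2b were over the detection level in 0 of the 4 control arrays and passed the filter through drug arrays. In both CD8 controls Cdkn1c (2.63 and 3.59), Prdm1 (3.02 and 3.21) and Il4 (2.31 and 2.25) were under that level too. The 4 genes that rose in CD8 cells at 10 µM, Cdkn2a, Cdkn2b, Cdkn1c and Prdm1, thus all began under it. Genes for 3 inhibitors of cyclin-dependent kinases were among those that rose. Cdkn2b was at least 3.48-fold and 5.05-fold higher in CD8 cells at 30 nM and 10 µM and at least 5.19-fold and 3.68-fold higher in CD4 cells. Cdkn1c was at least 4.48-fold and 7.8-fold higher in CD8 cells, and rose in CD4 cells, to 7.03 and 7.06 at 30 nM and 6.02 and 6.51 at 10 µM, against 3.62 and 4.56 in the CD4 controls, of which replicate 1 was under the detection level. Cdkn2a was at least 1.72-fold higher in CD8 cells at 10 µM. In CD4 cells at 30 nM it was at least 1.59-fold higher by the mean, with its replicates apart at 3.73 and 6.15. Replicate 1 there was under the detection level, so this bound rests on replicate 2. The CD4 controls read 2.57 and 2.54. The effector gene Prdm1 was at least 3.14-fold and 3.08-fold higher in CD8 cells, and Tbx21, which directs type 1 responses, rose by 1.62 there at 30 nM. The cytokine gene Il4 fell in CD4 cells, to 3.33 and 6.33 at 30 nM and 2.71 and 5.55 at 10 µM, against 9.59 and 10.16 in the CD4 controls, with replicate 1 under the detection level at both (limma adjusted p = 0.00212 and 0.000959).

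Of 17 germline genes that DNA methylation keeps silent in somatic cells, only 4 passed the detection filter, and 1 of these, Ddx4, passed it through drug arrays, being over the detection level in 0 of the 4 control arrays. In the fit without the block 1 rose at each top dose, or 2 in CD4 cells at 30 nM, and 0 fell. With the block 2 rose at each, or 3 in CD4 cells at 30 nM, and 1 fell in CD8 cells at 10 µM, and nothing is read from counts over so few genes. The shares of all genes called at these doses are those given above for the genes that Polycomb represses. Tex15, a testis gene, was over the detection level of 4.27 in all 4 control arrays, so it is not counted as silent without drug. Readings little over that level do not by themselves show expression. Tex15 rose in all 4 comparisons, and the list was chosen with earlier results of these data known. In CD8 cells it reached 9.63 and 8.53 at 30 nM and 9.42 and 8.89 at 10 µM. The CD8 controls read 5.63 and 4.72. In CD4 cells it reached 9.50 and 9.40 at 30 nM and 9.62 and 9.18 at 10 µM, against 4.65 and 4.81 in the CD4 controls. The drug and control arrays were far apart in every case, by 3.90 and 3.98 log2 units on average in CD8 cells and by 4.72 and 4.67 in CD4 cells. Ddx4, a germ cell helicase, read 4.83 and 4.16 in CD4 cells at 30 nM, against 2.27 in both CD4 controls, at least 1.17-fold higher by the mean, with replicate 2 under the detection level. DNA methylation itself was not measured here.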

How the data were processed

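RNA of 28 samples (14 groups with 2 arrays each) was measured on Mouse430_2 arrays, whose precision is limited by their number. The deposited values are log2 intensities summarised by the authors with GCRMA, per the submitters' processing notes, which give neither a version nor the base of the logarithm; base 2, the scale that GCRMA gives, was assumed. GCRMA subtracts a background modelled from probe sequence and sets undetected probe sets near 1 floor, so low values and their changes are compressed. The replicate sets have different floors; whether the authors normalized them apart is not given in the sources used here.

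Of 45101 probe sets, 34958 had 1 gene in the platform annotation, 932 several and 9211 none, and those with 1 gene gave 18194 genes, each by its brightest probe set. Genes over 4.27 (the commonest value, 2.27, plus 2) in at least 2 arrays were tested, 9871 in all. Group means were fitted to all arrays with limma 3.58.1 in R 4.3.3 (lmFit and eBayes, 14 residual degrees of freedom), with Benjamini-Hochberg adjustment within each of 27 contrasts and a threshold of 0.05; the script was tested on simulated data. Labels give the groups of a cell type the same replicate numbers. Same-numbered arrays deviated together in all 21 pairs of groups within each cell type (r from 0.762 to 0.940 in CD4 cells and from 0.768 to 0.958 in CD8 cells), so a second fit took the number as a block. "At least" folds run from the detection level, for genes under it in both arrays of a group.

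The 10 genes, the gene lists and the tests were chosen with earlier results of these data known. From the lists, the called genes were named by size of change, in each top-dose comparison up to 6 of the Polycomb and DNA methylation list and 4 of each other list; a gene so named has its values given wherever it was called, and the 3 most correlated genes of a member could be named. Alternatives were the block, quantile normalization, equal medians, no or a stricter filter, the mean of all probe sets, an intensity trend in eBayes, each cell type alone, and leaving out each array. Some listed genes are not reported here.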

Additional observations from a re-analysis of the deposited data

Results flagged for a closer look

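The response of Dnmt3a was compared between the cell types. Here 2 doses were flagged, for a call in either fit or for opposite signs in the cell types. At 30 nM romidepsin the changes within the replicate sets were -1.67 and -0.37 in CD8 cells and -2.69 and -2.17 in CD4 cells, a difference of 1.41 log2 units that was called with the block (limma adjusted p = 0.0406) and not without it (adjusted p = 0.656). At 0.5 µM vorinostat Dnmt3a was 0.24 over control in both CD8 replicates and changed by -0.21 and -0.17 in the CD4 replicates. That difference of 0.43 was tested and was not called in either fit (limma adjusted p = 1 in both). The difference at 10 nM romidepsin was larger, at 1.28. It was not flagged, since neither fit called it and Dnmt3a was lower in both cell types.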

How the results depend on the processing

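With the replicate block the number of called comparisons was 6 for CD8 romidepsin, 8 for CD8 vorinostat, 8 for CD4 romidepsin and 9 for CD4 vorinostat, with 1 difference of response, 2 differences between controls and 5 dose steps. Without the block, quantile normalization gave 2 calls for CD4 romidepsin and 3 dose steps, and equal medians gave 2 and 4. The mean of all probe sets gave 0 calls for CD4 vorinostat and 0 dose steps, and so did no filter (0) and each cell type alone (0) for the dose steps. Leaving out single arrays gave 0 calls for CD8 romidepsin, 0 to 2 for CD8 vorinostat, 1 to 2 for CD4 romidepsin, 0 to 1 for CD4 vorinostat, 0 to 1 for the dose steps, and 0 for the differences of response and between controls. The fall of Dnmt3a at 30 nM romidepsin in CD4 cells passed in every fit that left out an array (-2.89 to -1.96, highest adjusted p = 0.0382). Fits of 1 cell type give no value between cell types. No called value changed sign, and the median of all genes moved by less than 0.1 log2 units under either scaling. With 2 arrays a group, changes of under about 1 log2 unit were mostly not detectable without the block. A group left with 1 array was assumed to vary like the others. The cause of these differences between settings was not tested.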
